A study of Drosophila melanogaster with 2 samples.

Results

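The genes light (lt), concertina (cta), rolled (rl), Nipped-A, Parp, Dbp80, neverland (nvd), Snap25, Myo81F and Set1 of Drosophila melanogaster are well-known residents of pericentromeric heterochromatin, the repeat-rich chromatin that flanks the centromeres. They were taken by name, 10 of the 13968 protein-coding genes of the annotation, and every peak summit inside them or within 5 kb of them was collected. Su(var)2-HP2 occupancy was mapped with ChIP-seq, sequencing of DNA fragments recovered with a chromatin protein, on whole embryos collected at 0 to 10 h. Their line carried a stable transgene in which GFP is fused to the C terminus of Su(var)2-HP2, and the immunoprecipitation was done with an antibody to GFP. There was 1 group of 2 biological replicates, numbered 4 and 6 in the labels. The sources used here do not say how strongly the transgene is expressed, and whole embryos mix all cell types and stages of this interval.

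Peaks were read from 4 lists in dm6 coordinates: 1 for each replicate, a pooled list, and a list of 2006 peaks that passed a threshold on the irreproducible discovery rate (IDR), a measure of agreement between replicates. The replicate and pooled lists each hold 30000 peaks, and 12389 of the pooled peaks have a q-value under 0.05. The 2006 IDR peaks are the 2006 pooled peaks of highest signal value, down to a signal value of 120.9. The signal value is a score from the peak calling, on a scale that the sources do not state. Relative signal means that value over a list's own yardstick, the median signal value among its top 2006 peaks, which was 126.6 in replicate 4 and 90.1 in replicate 6. The files hold no read numbers, so the depth is unknown.

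All 10 genes lay in the pericentromeric parts as bounded here: lt and cta on 2L, rl and Nipped-A on 2R, Dbp80, nvd, Snap25 and Set1 on 3L, and Parp and Myo81F on 3R. Nipped-A was the nearest to a border, with its start site at position 5251022 against a border at 5.4 Mb. Gene length ran from 7.59 kb at Set1 to 1966 kb at Myo81F, with a median of 74.9 kb. The other 183 pericentromeric protein-coding genes had a median length of 4.55 kb. Exons made up 73.2% of Set1 and 0.332% of Myo81F, whose longest intron spans 268.1 kb. Bases soft-masked as repeats made up 20.7% of Set1, the lowest share, and 48.6% of rl, the highest. Annotated transposable elements covered 53.9% of Nipped-A and none of lt, cta and Set1. At Nipped-A 30.3% of bases were soft-masked, so element cover and soft-masking are different measures.

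Genes of this kind invert the usual rule of position effects. A gene moved from an arm to heterochromatin is often silenced, whereas lt and rl are expressed in their heterochromatic home and can lose expression when a rearrangement places them next to euchromatin. HP1, the protein that Su(var)2-HP2 binds, is found along such genes and is needed for the full activity of some of them. Su(var)2-HP2 itself is known as a suppressor of position-effect variegation.

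The promoter sequences that the results turn on are shown 5′ to 3′ on the strand of the gene, as the 250 bases that end just before the start site, from the RefSeq assembly of the dm6 chromosomes. They were chosen because the first 3 lie under strong peaks, while the last 2 carry the weakest start-site signals of the 10 genes. Capitals mark matches, on either strand, to any of 6 short motifs that were searched, and the motifs are spelled out with the motif counts. The Dbp80 window is chr3L:27279066-27279315 on the plus strand, with the summit at base 159, and its only capitals are a GAGA match.
Dbp80: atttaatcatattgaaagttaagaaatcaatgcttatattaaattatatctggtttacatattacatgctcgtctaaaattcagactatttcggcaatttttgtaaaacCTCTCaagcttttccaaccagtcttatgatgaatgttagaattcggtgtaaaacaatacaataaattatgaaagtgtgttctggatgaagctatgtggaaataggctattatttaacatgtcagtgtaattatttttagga
The cta window is chr2L:22981566-22981815 on the plus strand, with the summit at base 187, and its capitals are TATA box letters and a BEAF-32 core.
cta: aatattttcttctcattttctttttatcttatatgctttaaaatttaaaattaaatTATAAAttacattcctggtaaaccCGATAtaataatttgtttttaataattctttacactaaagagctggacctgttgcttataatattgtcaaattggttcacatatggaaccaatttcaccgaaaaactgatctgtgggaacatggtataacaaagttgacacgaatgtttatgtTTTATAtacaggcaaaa
The lt window is chr2L:22924545-22924794 on the plus strand, with the summit at base 122, and the TATA box letters are near its end.
lt: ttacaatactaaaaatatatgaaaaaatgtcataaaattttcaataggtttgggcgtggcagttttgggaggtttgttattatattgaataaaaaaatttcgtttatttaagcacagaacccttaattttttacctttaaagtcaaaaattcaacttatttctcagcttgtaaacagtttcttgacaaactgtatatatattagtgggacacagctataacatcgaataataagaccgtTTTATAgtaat
The Snap25 window is chr3L:24073930-24074179 on the plus strand, with the summit at base 19.
Snap25: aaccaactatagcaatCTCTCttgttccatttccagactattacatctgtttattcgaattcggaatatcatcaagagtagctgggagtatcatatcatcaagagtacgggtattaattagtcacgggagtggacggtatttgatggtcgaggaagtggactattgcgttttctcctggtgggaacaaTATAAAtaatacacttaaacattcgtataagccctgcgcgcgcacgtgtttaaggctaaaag
The nvd window is chr3L:24324616-24324865 on the plus strand, with the summit at base 104.
nvd: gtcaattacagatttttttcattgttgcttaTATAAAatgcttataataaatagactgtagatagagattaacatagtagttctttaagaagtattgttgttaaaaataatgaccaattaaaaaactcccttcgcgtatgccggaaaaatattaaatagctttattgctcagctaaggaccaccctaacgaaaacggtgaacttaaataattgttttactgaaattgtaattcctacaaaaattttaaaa

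Su(var)2-HP2-GFP peaks were strong at the start sites of 8 of these genes, weak at Snap25 and below the IDR list at nvd. An IDR summit lay within 500 bp of a start site in 9 of the 10 genes, nvd being the exception. Over all protein-coding genes that share was 8.84%, and over the 193 pericentromeric ones it was 46.1%. Inside the gene or within 5 kb of it, 9 of the 10 had an IDR summit, against 22.3% of all protein-coding genes and 55.4% of the pericentromeric ones. Long genes offer more room to the second rule. Among the 25 pericentromeric genes of at least 50 kb, 7 of which are described here, 76% had an IDR summit by that rule and 52% had one at a start site. The 193 pericentromeric genes include genes of X, where none of the 10 lies. Among them is a run of X genes of 876 bp without a start-site summit in the pooled list. The shares without X were not computed. These counts describe named genes and were not tested.

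Dbp80, which encodes a DEAD-box RNA helicase, had the strongest start-site summit of the 10. Its signal value was 4243 in the pooled list, where it ranked 6, and its summit at position 27279224 of 3L lay 92 bp upstream of the start site. The signal value was 2183 in replicate 4 (rank 8) and 2108 in replicate 6 (rank 3). Relative signal was thus 17.2 and 23.4, or 20.3 ± 4.35 (SD, n = 2). The light gene lt encodes the fly Vps41, a subunit of the HOPS tethering complex that delivers cargo to lysosomes and pigment granules. Its signal value was 896 in replicate 4 and 786 in replicate 6, which is 7.9 ± 1.17 (SD, n = 2) as relative signal. The pooled lt summit at 22924666 of 2L was 129 bp upstream of the start site and ranked 105.

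The signalling genes were also marked at their start sites. The gene cta encodes a G protein alpha subunit that drives cell shape change at gastrulation, an event of these hours of development. Its signal value was 1468 in replicate 4 and 1397 in replicate 6, a relative signal of 13.5 ± 2.77 (SD, n = 2), and the pooled summit was 64 bp upstream of the start site. The gene rl encodes the ERK-type MAP kinase of receptor tyrosine kinase signalling. It has 2 annotated start sites, at 1071462 and 1071975 of 2R, and 2 summits between them, at 1071644 and 1071866. Replicate 4 gave 687.6 at its stronger summit and replicate 6 gave 770.2, a relative signal of 6.99 ± 2.2 (SD, n = 2). The stronger summit was the one nearer the second start site in replicate 4 and the one nearer the first in replicate 6, so the replicates do not order these summits. The pooled rl summit also lay 325 bp from a start site of lncRNA:CR41257, a noncoding RNA gene of the opposite strand, and the lists do not say to which gene it belongs.

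Of the chromatin genes, Nipped-A encodes the large Tra1/TRRAP-type subunit of histone acetyltransferase complexes. Its signal value was 1700 in replicate 4 and 1429 in replicate 6, a relative signal of 14.6 ± 1.71 (SD, n = 2), and its pooled summit ranked 27. Set1 encodes a histone H3 lysine 4 methyltransferase. It had values of 1005 and 1111 in replicates 4 and 6, which is 10.1 ± 3.1 (SD, n = 2) as relative signal. Of the 4 start sites of Set1 the summit was nearest to the one at 25108997, 104 bp upstream of it, and lay within 500 bp of no start site of another gene. Counting from the 5′ end of the gene alone, Set1 had no IDR summit within 500 bp. Parp encodes the poly(ADP-ribose) polymerase, which is named Parp1 in the annotation. Its start site was the weakest of these 3, with values of 350.9 and 361.9 in replicates 4 and 6, a relative signal of 3.39 ± 0.879 (SD, n = 2) and a pooled rank of 234. The unconventional myosin gene Myo81F had values of 922 and 1025 in replicates 4 and 6, which is 9.33 ± 2.89 (SD, n = 2) as relative signal.

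The last 2 genes have roles in particular cell types. Snap25 encodes a SNARE protein of synaptic vesicle fusion, used in neurons. Its start-site summit had signal values of 76.9 in replicate 4 and 60.9 in replicate 6, a relative signal of 0.641 ± 0.0486 (SD, n = 2). In the pooled list it ranked 1939, just inside the IDR list. The gene nvd encodes the oxygenase of the first step of ecdysone synthesis from cholesterol, a product of the steroid-producing gland. Its strongest start-site summit had a value of 21.4 in replicate 4 (rank 18126) and 34.9 in replicate 6 (rank 3921), a relative signal of 0.278 ± 0.154 (SD, n = 2). Its pooled summit ranked 10289, with −log10 q of 1.58. No cell type is resolved in whole embryos, and a weak average over all cells cannot be told apart from a strong signal in few of them.

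**Figure D1:**
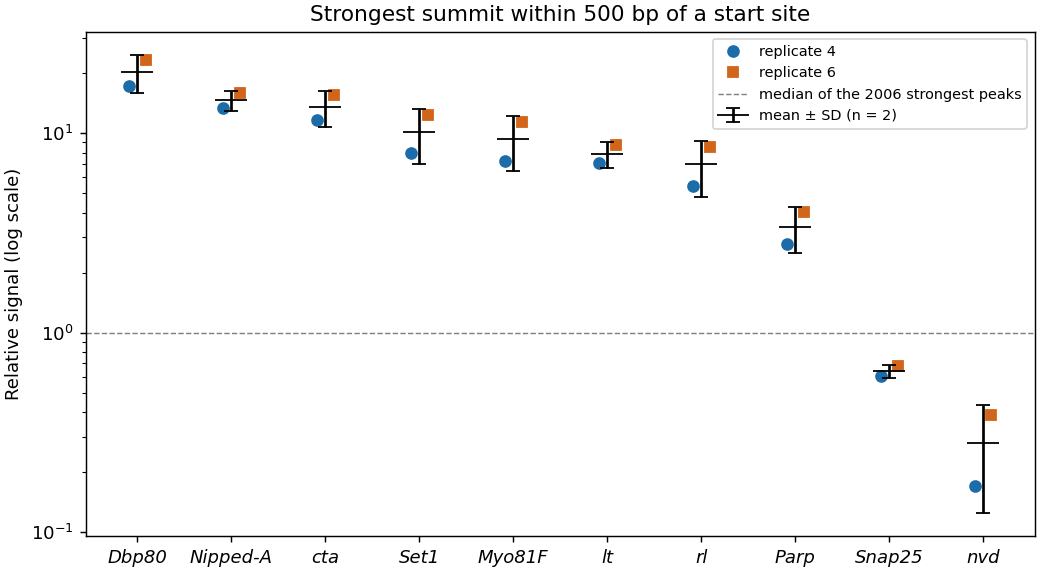
Relative signal (log scale) of the strongest summit within 500 bp of a start site for each of the 10 genes, with replicate 4 as circles, replicate 6 as squares and bars for mean ± SD (n = 2). Replicate 6 is above replicate 4 at all 10 genes, and the order of the genes is the same in both, from Dbp80 at 20.3 to nvd at 0.278.

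The order of the 10 genes was the same in both replicates: Dbp80, Nipped-A, cta, Set1, Myo81F, lt, rl, Parp, Snap25 and nvd. Relative signal was higher in replicate 6 at all 10, by 1.11 times at Snap25 to 2.29 times at nvd, and the SDs hold this shared shift. Of the 9 gaps between neighbours in this order, 5 were larger than the SD of either neighbour. The other 4 were smaller than an SD: Nipped-A and cta, with means 1.09 apart, and the run of Set1, Myo81F, lt and rl, with steps of 0.804, 1.43 and 0.911. Within that run the order is therefore no firmer than its repeat in the second replicate. The steps from rl down to Parp and from Parp down to Snap25 were 3.6 and 2.75.

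**Figure D2:**
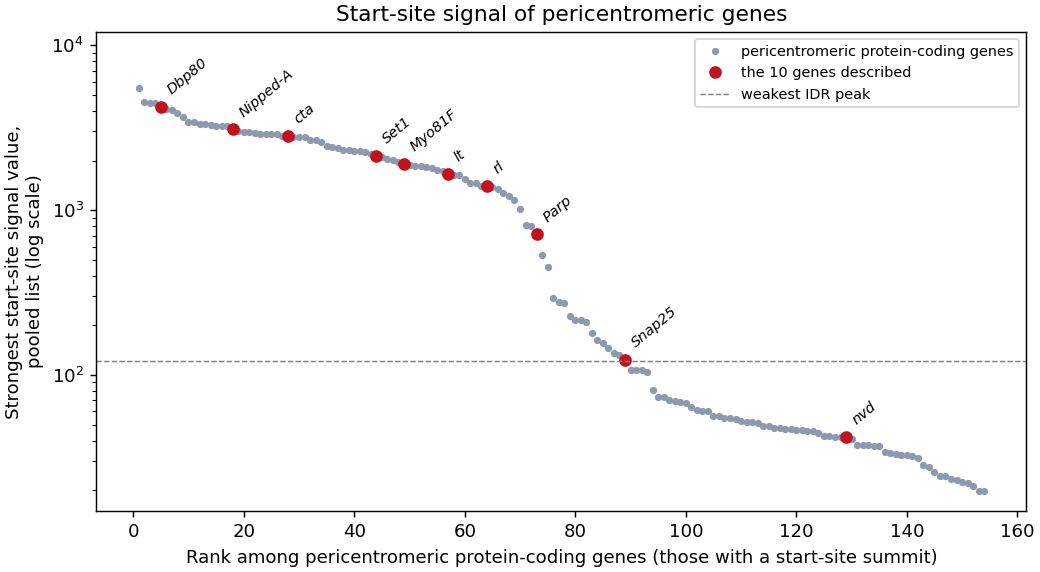
Strongest start-site signal value in the pooled list (log scale) against rank for the 154 pericentromeric protein-coding genes that had any start-site summit, with the 10 genes described in red and the weakest IDR peak as a dashed line. Most of the 10 sit on the upper shelf, while Snap25 at rank 89 lies at the line and nvd at rank 129 on the lower shelf.

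Set among all pericentromeric protein-coding genes by the same measure, Dbp80 ranked 5, Nipped-A 18, cta 28, Set1 44, Myo81F 49, lt 57, rl 64, Parp 73, Snap25 89 and nvd 129 of 193. The plot of start-site signal by rank shows a shelf of strong genes, a steep fall near Parp and a second shelf below the IDR list. The median of the strongest pooled start-site signal value was 1782 over the 10 genes. It was 214.4 over the 144 of the other 183 pericentromeric genes that had a start-site summit, with quartiles at 47.4 and 2301. Of the other 18 pericentromeric genes of at least 50 kb, 17 had a start-site summit in the pooled list, with a median of 69.6, and 7 had an IDR summit there. The 7 long genes described here had a median of 1396, and 6 of them had such an IDR summit. The genes were chosen by name and with earlier results known, so these medians stand side by side as a description.

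Where the start-site peak was strong it was also wide. Most start-site summits lay just upstream, the weak ones of Snap25 and nvd included. The strongest IDR summit at a start site was upstream of it in 8 of 9 genes, at a median distance of 126 bp, and rl was the exception. The other 80 pericentromeric genes with such a summit had 87.5% upstream and a median of 88.5 bp. Genes of the chromosome arms had 92.7% upstream and a median of 150 bp. The called interval around the summit was wider than 1000 bp in 8 of the 9 genes, from 1028 bp at Parp to 3876 bp at rl, and was 173 bp at Snap25. Intervals wider than 1000 bp were held by 86.3% of the other pericentromeric genes with an IDR summit at a start site and by 4.66% of the 1095 such genes on the arms. The arm peaks were also weaker. Over genes with any pooled start-site summit, the upper quartile of signal value was 107.7 on the arms and 2301 at the other pericentromeric genes. Widths were not compared at like signal. In the pooled list 90.8% of all intervals have 1 fixed width of 430 bp, so width carries information mainly for strong peaks.

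The Set1 window held the strongest peak of the whole experiment, but at its neighbour. The summit at 25116009 of 3L, signal value 5544 and rank 1, lay downstream of Set1 and within 500 bp of the start site of MED21, a Mediator subunit gene on the opposite strand. It was counted among the 4 downstream summits and adds nothing to the start-site values of Set1. As at rl, a second, weaker IDR summit at the start site shared the called interval at lt, with a signal value of 189.5, and at Parp, with 193.9. Nipped-A had a second start-site summit of 91.9 in the pooled list, 418 bp upstream of the start site and below the IDR list. Its second summit had 768.8 in replicate 4, at 338 bp upstream, and 428.6 in replicate 6, at 367 bp upstream. These positions differ, so the pooled and replicate values do not measure the same point. The second lt summit had a match within 100 bp in replicate 4 and none in replicate 6. The Set1 IDR summit at 25107037, signal value 130.6, had none in replicate 4.

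Inside the genes, the 10 together held 33 IDR summits, counted from 500 bp before the first start site to the gene end. Of these, 12 lay within 500 bp of a start site, 36.4%, and the rest were 19 in introns and 2 in coding exons of Nipped-A. By the same distance, 1072 of all 2006 IDR summits were near a start site, as were 136 of the 402 pericentromeric ones. Those sets also take in summits outside genes, so the shares are not a like comparison. With the 500 bp before the first start site included, the genes span 2706 kb. The density of their 33 summits was thus 1.22 IDR summits per 100 kb. Pericentromeric DNA as a whole had 2.29 per 100 kb of placed sequence. Myo81F alone makes up most of the length. Without it the density was 2.84 per 100 kb and the start-site share 52.4%, a setting added after the values were seen. Windows of 5 kb on each side added 4 upstream and 4 downstream summits, for 41 in all.

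**Figure D3:**
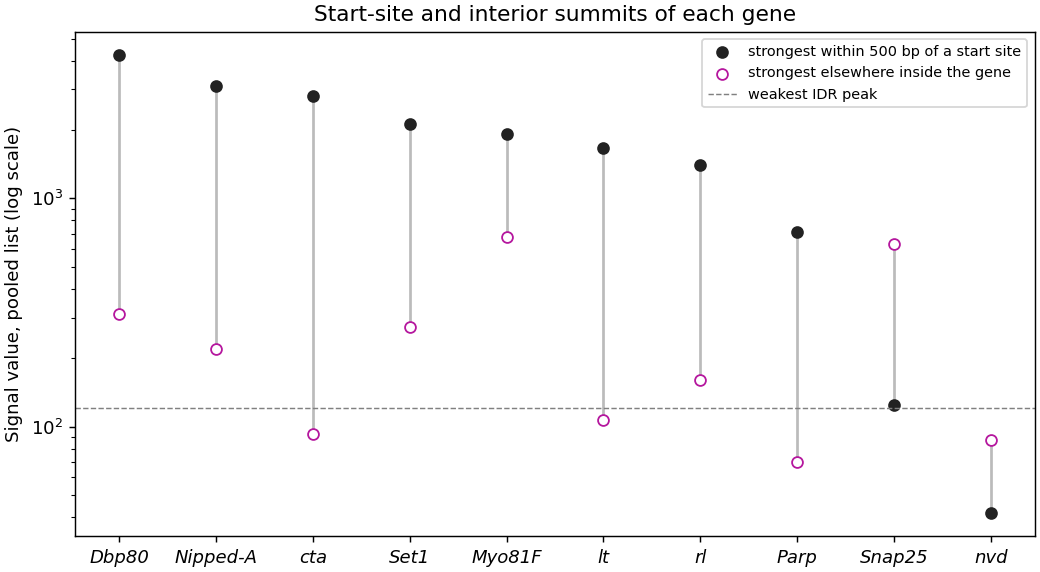
Signal value in the pooled list (log scale) of the strongest summit within 500 bp of a start site (filled) and the strongest elsewhere inside the gene (open) for each of the 10 genes, with the weakest IDR peak as a dashed line. The filled point is the higher one in 8 genes and the lower one in Snap25 and nvd, and at nvd the 2 were nearly level in replicate 6 (34.9 against 37.1).

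In 8 genes the start-site summit was the strongest of the gene, in the pooled list and in each replicate list. In the pooled list it exceeded the strongest summit elsewhere in the gene by 30.3 times at cta, 15.5 times at lt, 14.2 times at Nipped-A, 13.6 times at Dbp80, 10.2 times at Parp, 8.71 times at rl, 7.72 times at Set1 and 2.81 times at Myo81F. With the strongest interior summit taken from each replicate list by itself, the cta ratio was 18.5 in replicate 4 and 24.8 in replicate 6, both below the pooled one. At Set1 it was 19.6 and 5.08, so its size differed widely between replicates. The other 6 of these genes had ratios from 3.46 to 13.4 in replicate 4 and from 2.36 to 14.3 in replicate 6. The lt ratio was 11.1 in replicate 4 and 11 in replicate 6. In each replicate it was below those of Nipped-A (12.5 and 13.9) and Dbp80 (13.4 and 14.3), unlike in the pooled list. The Parp ratios of 7.6 and 8.17 were also below the pooled one. The interior summit of Set1 lay 502 bp from a start site, at the edge of the rule, and shared the called interval of the promoter peak. It ranked 10855 in replicate 4 and 342 in replicate 6. For rl as well, the interior summit lay in the same interval of 3876 bp as the start-site peak. At cta, lt, Parp and nvd no interior summit reached the IDR list.

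At Snap25 the interior summit was the stronger one, with a ratio of start-site to interior signal value of 0.197 in the pooled list, 0.214 in replicate 4 and 0.223 in replicate 6. The strongest Snap25 summit lay 157.4 kb into the gene, at position 24231559 of 3L, in intron 6 of 8, which is 43.7 kb long. It was 21.4 kb from the nearest exon of Snap25, 6222 bp from the nearest annotated transposable element, and within 500 bp of no start site of another gene. In the pooled list it had a signal value of 628.4 and ranked 258. The value was 359.1 in replicate 4 (rank 274) and 272.6 in replicate 6 (rank 282), a relative signal of 2.93 ± 0.133 (SD, n = 2). The start site of the same gene had 0.641 ± 0.0486, so the gap between these 2 summits was wide against the spread between replicates. The strongest interior summit of nvd had a value of 87.3 and a rank of 3156, with relative signals of 0.397 and 0.411 in replicates 4 and 6. The nvd ratio was 0.479 in the pooled list, 0.404 in replicate 4 and 0.942 in replicate 6. Its start-site mean of 0.278 and interior mean of 0.404 differed by less than the start-site SD of 0.154, so the order of these 2 nvd summits did not hold up against the spread between replicates.

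The Snap25 intron summit is shown with 75 bases on each side, chr3L:24231484-24231634 on the plus strand, because it is the strongest summit of this gene and lies far from any exon. The summit is base 76, and capitals mark a GAGA match, the DRE letters, whose first base is the summit itself, and a further BEAF-32 core.
Snap25 intron: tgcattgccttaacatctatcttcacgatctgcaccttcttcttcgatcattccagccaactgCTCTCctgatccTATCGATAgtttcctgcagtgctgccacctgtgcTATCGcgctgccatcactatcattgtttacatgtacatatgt
The strongest intron summit of Dbp80 is shown for comparison, chr3L:27358857-27359007 on the plus strand, with no match to the 6 motifs.
Dbp80 intron: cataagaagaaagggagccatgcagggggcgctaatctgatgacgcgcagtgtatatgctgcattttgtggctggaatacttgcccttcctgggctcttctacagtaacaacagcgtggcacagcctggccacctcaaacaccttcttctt

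**Figure D4:**
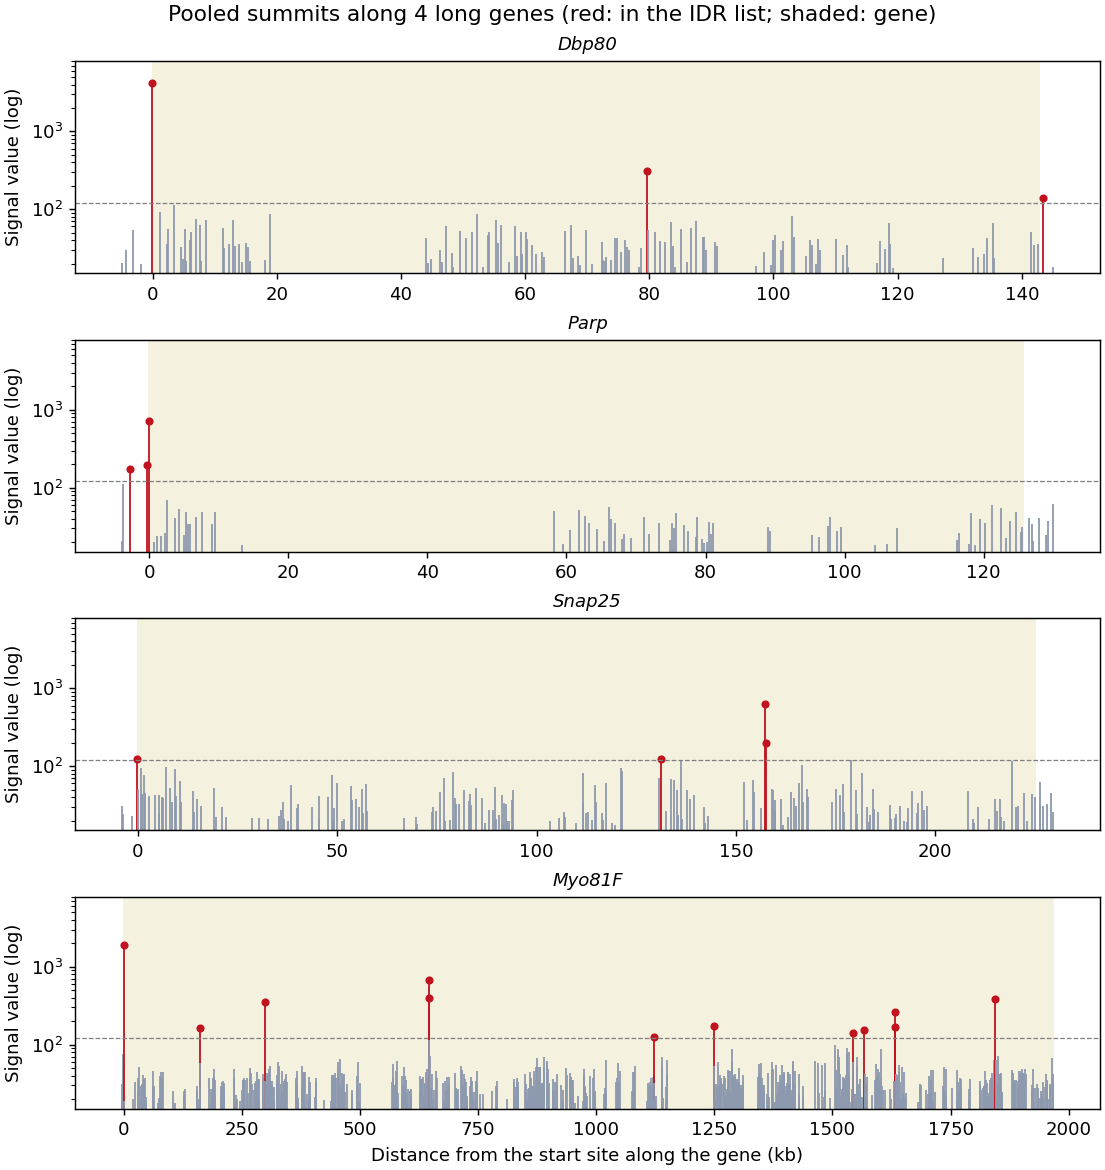
Signal value (log scale) of every pooled summit along Dbp80, Parp, Snap25 and Myo81F against distance from the start site in kb, with IDR summits in red and the gene shaded. Weak summits are spread along each gene, the tallest line stands at the start site in Dbp80, Parp and Myo81F, and in Snap25 it stands 157.4 kb downstream.

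Myo81F held 11 of the 19 intron summits in the IDR list. The strongest was at position 1212840 of 3R, 645.8 kb into the gene in intron 8 of 21, with a second summit at 1213040 in the same interval of 1617 bp. Its signal value was 256.4 in replicate 4 (rank 381) and 435 in replicate 6 (rank 182), or 3.43 ± 1.98 (SD, n = 2) as relative signal. A further summit, at 2412001, had the opposite tilt, 266.4 in replicate 4 and 124.2 in replicate 6, with a relative signal of 1.74 ± 0.513. The replicates thus disagreed on which intron summit of Myo81F was the stronger. Values at 864692 were 135.8 and 207.2 in replicates 4 and 6. None of the 11 lay inside an annotated transposable element or within 500 bp of a start site of another gene. Distances to the nearest element ran from 264 to 61211 bp.

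The other intron summits were few. Dbp80 had 1, at 27358932 of 3L, in intron 9 of 13 and 79.6 kb into the gene. Replicate 4 gave a signal value of 163.1 and replicate 6 one of 147, a relative signal of 1.46 ± 0.243 (SD, n = 2). Nipped-A had intron summits of signal value 218.4 and 185.4 in the pooled list, and the first lay 73 bp from an annotated hopper element. Its coding-exon summits had values of 130 and 127.4, near the lower end of the IDR list. Of all 41 IDR summits in these windows, 0 lay inside an annotated transposable element, against 3.09% of all IDR summits and 9.7% of the 402 pericentromeric ones.

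Below the IDR list, weak summits were spread along the whole length of the genes. The pooled list held 1631 summits in the 10 windows, 89.6% of them in introns, and 56.6% of them at Myo81F. Exons covered a median of 8.21% of a gene, and Myo81F makes up 1966 of the 2701 kb of the 10 genes. In the same windows the lists of replicates 4 and 6 held 1403 and 1770 summits. Of the pooled ones, 36.8% had a q-value under 0.05, beside 12389 of the 30000 peaks of the whole pooled list. The median signal value of the pooled intron summits was 30.3, against 711.5 for the 17 start-site summits. Per 100 kb the genes held 57 pooled summits, and pericentromeric DNA held 56.7. At summits in introns, 27.6% of the bases within 100 bp were soft-masked, against 40.1% of all intron bases of these genes. Annotated transposable elements held 73 of the 1461 pooled intron summits (5%), and their median cover over the 10 genes was 9.66%. Of these 73, 33 were among the 59 intron summits of Nipped-A (55.9%), a share near the 53.9% of that gene that elements cover. The part of repeats in the placing of weak summits was not tested.

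**Figure D5:**
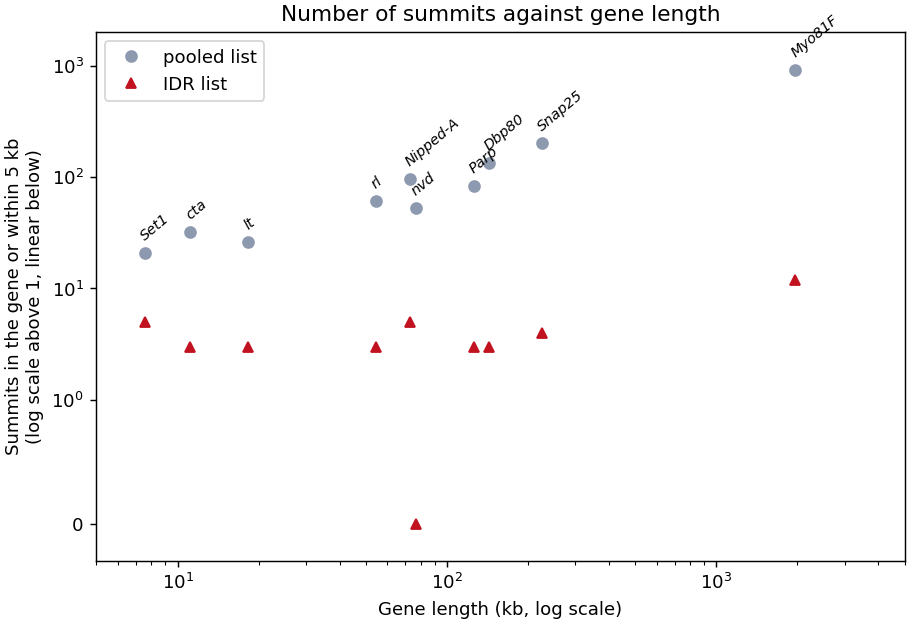
Number of summits in the gene or within 5 kb against gene length in kb (log scale) for the 10 genes, with the pooled list as circles and the IDR list as triangles. Pooled counts climb with length from 21 at Set1 to 923 at Myo81F, while IDR counts stay between 3 and 5 except at nvd with 0 and Myo81F with 12.

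The number of pooled summits followed gene length, from 21 at Set1 to 923 at Myo81F, with a Spearman correlation of 0.927 over the 10 genes. The same value was 0.903 in each replicate list. Among IDR summits, Set1, the shortest gene, had 5 in its window, Nipped-A had 5, Snap25 had 4, and lt, cta, rl, Parp and Dbp80 had 3 each. The Spearman correlation with length was 0.175 for these windows, and 0.475 for IDR summits inside the genes, which leaves out the flanks and the MED21 summit. The strongest start-site signal value had a correlation of −0.224 with length. The points share their libraries and the composition of pericentromeric DNA, and the correlations are descriptions over 10 genes. Wide windows of short genes also reach into neighbours, as at Set1.

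Short motifs were searched on both strands in the 250 bases before the 5′ end of each gene, and a match says only that the letters are there. TATA box letters, spelled TATAAA, occurred in 7 of the 10 promoters, against 43% of all protein-coding promoters and 46.6% of the pericentromeric ones. The core bound by the insulator protein BEAF-32, searched as CGATA, occurred in 3 of 10 promoters, against 42.5% of all and 48.2% of the pericentromeric ones. The letters GAGAG, the element of GAGA factor, occurred in 2 of 10 promoters, against 25.7% of all and 22.8% of the pericentromeric ones. The DNA replication-related element or DRE, TATCGATA, contains the BEAF-32 core and so counts under both names. It was in 0 of 10 promoters, against 7.99% of all and 16.6% of the pericentromeric ones. The core of Motif 1, GGTCACAC, was also in 0 of 10, against 4.2% of all promoters and 1.04% of the pericentromeric ones. An E-box, searched with the letters CAGCTG, was in 0 of 10, against 13.4% of all promoters and 5.18% of the pericentromeric ones.

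In windows of 201 bp around the strongest start-site summits, DRE letters were found at Snap25 and Motif 1 letters at rl, 1 gene of 10 each. The BEAF-32 core was found in 2 of 10, GAGA letters in 2, TATA box letters in 3 and the E-box in 0. All IDR summits within 500 bp of a start site held DRE, Motif 1, BEAF-32, GAGA, TATA box and E-box letters in 7.28%, 3.36%, 37.2%, 16.1%, 42.6% and 7.09% of windows. Around the strongest interior summits, the BEAF-32 core was found in 4 of 10 windows, the E-box in 3, DRE letters in 2 (Snap25 and cta), TATA box letters in 2, GAGA letters in 1 and Motif 1 letters in 0. The 934 IDR summits away from start sites held these letters in 25.8%, 6.42%, 3.43%, 35%, 21.9% and 0.964% of windows. The interior summits of cta, lt, Parp and nvd are not in the IDR list, so the 2 sets of windows differ in kind. Snap25 had DRE letters at both its start-site and its intron summit. The promoters were AT-rich, with GC contents from 26.4% at cta to 40.4% at Snap25.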

How the data were processed

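ChIP-seq peak lists of 2 biological replicates (numbers 4 and 6) were used. According to the listing deposited beside the peak files, every replicate list was made against one shared control, the pooled list combines both replicates, and the IDR list derives from the other lists. Chromatin was sonicated to 200 to 800 bp and coordinates are dm6, per the labels. Which aligner and which peak caller made the lists is not given in the sources used here. Column values are used as deposited: the signal value of each peak is the authors' score on an unstated scale. A −log10 q-value is deposited beside it, and for every IDR peak it has the list's highest value, 3.98.

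Summits were placed with Python 3.11.15 and pandas 2.3.3 on the Ensembl release 115 annotation, and sequence with its soft-masked repeats came from RefSeq. Any transcript start counted as a start site, introns were the stretches between the merged exons of all transcripts, and the nearest replicate summit within 100 bp of a pooled one counted as its match. The strongest start-site summit was taken from each list by itself. Pericentromeric parts were 2L from 22 Mb, 3L from 23 Mb, X from 22 Mb, 2R to 5.4 Mb and 3R to 4.2 Mb, which are rounded borders. As a check of the placing code alone, 800 simulated summits were planted at start sites, in introns and in flanks. All 800 got their planted label. The places came from the same annotation and distance rule, so the check cannot show errors in annotation or summit coordinates. No summit was planted in an exon class. With 1 group no test between conditions could be made, and no p-value is given. The genes, the lists and the motifs were chosen with earlier results of these data known. The text names the 10 genes, any gene whose start site shares their summits, and the 5 strongest of a list of 27 other heterochromatin genes. Outside this rule laccase2, spok and AGO3 of that list are named, chosen after their values were seen. Alternative distances, peak sets, scales and borders were tried, and each replicate was left out in turn.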

Additional observations from a re-analysis of the deposited data

How the results depend on the processing

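The counts of genes with an IDR summit, 9 of 10 by either rule, ranged from 7 to 10 over distances, peak sets and single replicates. No IDR list can be made from a single replicate. With a replicate left out, a stand-in list therefore took the strongest peaks of the other replicate's own list, as many as the IDR list holds. The stand-in lists have no filter for agreement between replicates, so their values are not IDR values. The start-site share of IDR summits inside the genes, 36.4%, was 44.1% within 1000 bp, 50% for the upper 1003 IDR peaks, 47.6% for the 1349 IDR peaks that were strong in each replicate, 2.71% for pooled peaks with a q-value under 0.05 and 52.4% without Myo81F, an alternative chosen after seeing the data. It was 32.4% to 37.8% in the stand-in lists. The median relative signal of 8.61 became 49.6 when divided by the median of the whole list, which is another scale. All 10 single-gene values moved likewise, in the same order of genes. With a replicate left out the median was 7.18 to 10. The density of 1.22 IDR summits per 100 kb was 0.887 with 1 summit per interval and 1.46 with 5 kb on each side. It was 2.84 without Myo81F, and 1.37 in the stand-in list of either replicate. The pericentromeric share of 46.1% was 33.3% and 53.7% with borders moved outward and inward by 0.5 Mb. In the stand-in lists this share was 43.5% to 47.2%. The cause of these shifts was not tested. No paired analysis was possible because there is a single group. Depth is unknown, and 2 replicates give an SD with little precision.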

Other observations

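Some long stretches of these genes held no pooled summit. In Parp none lay from 13.3 to 58.1 kb downstream of the start site, a stretch of 44.8 kb or 35.7% of the gene, in which replicate 4 had 0 summits and replicate 6 had 1. Annotated transposable elements covered 0% of this stretch, and 36.9% of its bases were soft-masked. Dbp80 had a stretch of 25.1 kb without a pooled summit, from 19 to 44.1 kb downstream of the start site, with 13.9% of its bases soft-masked. The longest such stretch of Myo81F was 98.6 kb. In Nipped-A it was 5.82 kb, and transposable elements covered 93.4% of it. The reference had 0% unknown bases in each of these stretches.

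The list of 27 other genes known from heterochromatin was read in the same way at start sites. Of these, 26 lay in the pericentromeric parts, laccase2 being the exception. An IDR summit at a start site was held by 20 of the 26 (76.9%), against 46.1% of all pericentromeric protein-coding genes, the run of X genes without a summit included. The 5 strongest were MED21, the ribosomal protein gene RpL5, Yeti, d4 and the ribosomal protein gene RpL15, with pooled signal values from 5544 to 3250. The steroid synthesis gene spok, which like nvd acts in the making of ecdysone, had 27.6 in the pooled list and no mean over both replicates. It was singled out after its value was seen. The other pericentromeric genes of the list without an IDR summit at a start site had pooled values from 46.5 to 103.8. The piRNA pathway gene AGO3, 135 kb long, had 162.4, also singled out afterwards. The list was drawn up with earlier results known and was not tested.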
